A study of Mus musculus with 23 samples.

Results

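The comparison described here set RiboTag precipitates of wild-type mouse spinal cord with ChAT-Cre against precipitates of wild-type cord without Cre. It used the 11 libraries that the labels give as wild type, of 23 in the series, chosen by their group label alone: 5 with the genotype Rpl+/-;Chat+/-;C201R+/+ (Cre) and 6 with Rpl+/-;Chat+/+;C201R+/+ (no Cre). The other 12 libraries carry the Gars C201R allele, C201R+/-, with or without Cre. All groups share the strain background B6.CgxB6.129, the age of 2 weeks and 1 copy of the Rpl22 tag allele. Nothing in the labels ties the libraries to different animals. The p-values therefore measure the spread between libraries, which may be partly technical.

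RiboTag is an allele of Rpl22, a protein of the large ribosomal subunit, that gains a haemagglutinin tag only in cells with Cre recombinase. An antibody to the tag then pulls down ribosomes of those cells with the mRNAs bound to them. ChAT-Cre is active where choline acetyltransferase is made, which in the cord means somatic motor neurons, autonomic preganglionic neurons and cholinergic interneurons, so the tag is not limited to motor neurons. Motor neurons release acetylcholine onto muscle through long axons packed with neurofilaments. The animals without Cre should make no tagged protein, and their precipitate is the RNA that sticks to beads and antibody; it is not the RNA of the whole cord. A difference in the bulk precipitate cannot tell fewer cells of a type from less RNA per cell.

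In wild-type cord with Cre, most tested genes of cholinergic transmission and motor neuron subtypes were higher than in the background precipitate. Most tested genes of glia, blood and vessels were lower, and transcription factors of motor neuron identity went in both directions. Of 12485 genes tested, 5738 (46%) passed an adjusted p of 0.05 by edgeR's quasi-likelihood test with Benjamini-Hochberg adjustment. The 2503 genes higher with Cre made up 20% and the 3235 lower genes 25.9% of those tested. These percentages are the background for the counts of called genes from this fit. A count under another setting is to be read against that setting's own totals over all tested genes. These were 404 higher and 502 lower under library totals, and 620 and 834 by limma-trend on log2(TPM + 1). With the title number as a block they were 2734 and 3035. The median log2 fold change of all tested genes was -0.14. A log2 fold change above 2 was reached by 719 of the higher genes, and one below -2 by 1857 of the lower genes.

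**Figure D1:**
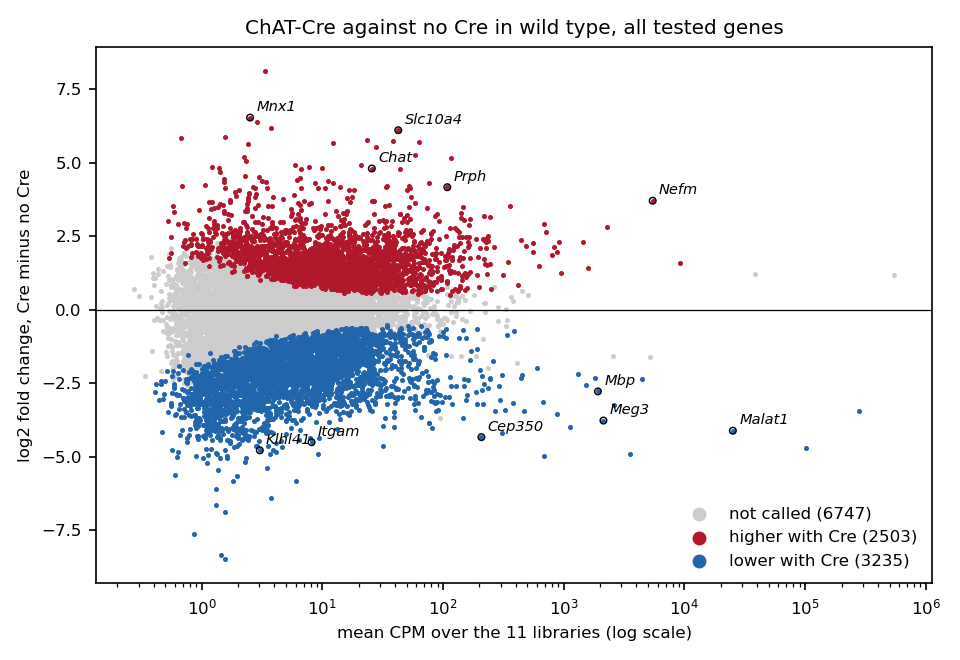
Each point is a tested gene, with its mean level in CPM (counts scaled to TMM-adjusted library size) over the 11 libraries on a log axis and the log2 fold change, Cre minus no Cre, on the vertical axis; red and blue mark the 2503 higher and 3235 lower genes at an adjusted p of 0.05. Mnx1, Slc10a4 and Chat lie near the top of the higher genes, while Malat1 lies at -4.11 with one of the highest levels.

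The promoters of 4 of the higher genes are shown because the results return to them: Chat, whose locus drives the Cre, and the heat shock chaperones Hspb1, Dnaja1 and Hspe1. Each is the stretch of 250 bases before the gene's start from RefSeq (build GRCm38.p6), written 5′ to 3′ on the gene's strand. Capitals mark a match to CAGCTG, an E-box, in Chat and to GAANNTTC, the core of the heat shock element, in the other genes.
Chat, chr14:32465910-32466159, minus strand: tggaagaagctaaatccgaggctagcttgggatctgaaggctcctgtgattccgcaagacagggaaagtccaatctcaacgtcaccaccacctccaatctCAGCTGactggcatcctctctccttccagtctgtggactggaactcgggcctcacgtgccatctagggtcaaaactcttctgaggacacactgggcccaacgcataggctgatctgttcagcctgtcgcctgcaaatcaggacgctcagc
Hspb1, chr5:135887669-135887918, plus strand: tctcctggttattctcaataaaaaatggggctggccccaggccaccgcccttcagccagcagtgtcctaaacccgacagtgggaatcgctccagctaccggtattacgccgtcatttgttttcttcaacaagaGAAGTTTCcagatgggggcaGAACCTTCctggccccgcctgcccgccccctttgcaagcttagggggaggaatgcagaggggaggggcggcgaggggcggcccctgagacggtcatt
Dnaja1, chr4:40722218-40722467, plus strand: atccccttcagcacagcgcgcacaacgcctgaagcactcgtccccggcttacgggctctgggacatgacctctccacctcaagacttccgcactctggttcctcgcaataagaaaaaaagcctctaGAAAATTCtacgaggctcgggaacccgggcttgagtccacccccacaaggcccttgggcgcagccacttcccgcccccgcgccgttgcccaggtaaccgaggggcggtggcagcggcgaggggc
Hspe1, chr1:55087898-55088147, plus strand: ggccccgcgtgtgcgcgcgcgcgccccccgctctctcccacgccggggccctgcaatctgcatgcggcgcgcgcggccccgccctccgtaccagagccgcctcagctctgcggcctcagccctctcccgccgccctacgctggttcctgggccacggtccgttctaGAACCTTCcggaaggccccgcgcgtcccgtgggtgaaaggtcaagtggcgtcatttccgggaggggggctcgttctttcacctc
Both motifs read the same on either strand and do not overlap each other here. CAGCTG was found in the promoter window of 14.7% of 27025 genes, and GAANNTTC in that of 7.73%. Among 23 chaperone genes of the chosen list with a promoter entry, 8 held GAANNTTC: Cct2, Dnaja1, Dnajb6, Hspa1a, Hspa1b, Hspb1, Hspd1 and Hspe1. Among the 20 largest rises, 14 had an entry; 1 of these held CAGCTG (Chat) and 2 held GAANNTTC (Cartpt and Hspb1). These matches describe the letters of the window and not a site in use.

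The libraries differed in what their counts were made of. Total expected counts ran from 9031629 to 13636750 with Cre and from 12538367 to 18806425 without. Gene models that collect ribosomal RNA reads (Gm26924, Gm15662 and Lars2) held 70.6% ± 15.3 (SD, n = 5) of the counts with Cre and 26.1% ± 7.11 (SD, n = 6) without, with no overlap between the groups (exact two-sided permutation test, p = 0.00216, the smallest possible; 0.00541 adjusted over 5 classes). Mitochondrial ribosomal RNA went the other way, 4.89% ± 0.866 (n = 5) against 48.0% ± 8.83 (n = 6), with the same exact permutation p and adjusted p. Nuclear protein-coding genes held 23.1% ± 13.9 (n = 5) and 18.5% ± 11 (n = 6), a difference inside the spread of the libraries (exact permutation p = 0.558). Counts outside ribosomal RNA were 1213573 to 4465988 per library with Cre and 2170337 to 5582455 without. Cre replicate 2 stood apart from its group, with 44.6% ribosomal RNA-like counts where the other Cre libraries had 73.4% to 85.2%, and with 46.8% protein-coding counts. Scaling factors of the TMM method, which adjusts libraries of unlike composition, spread from 0.470 to 2.80, and scaling by library totals alone left 906 called genes, 404 higher and 502 lower.

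**Figure D2:**
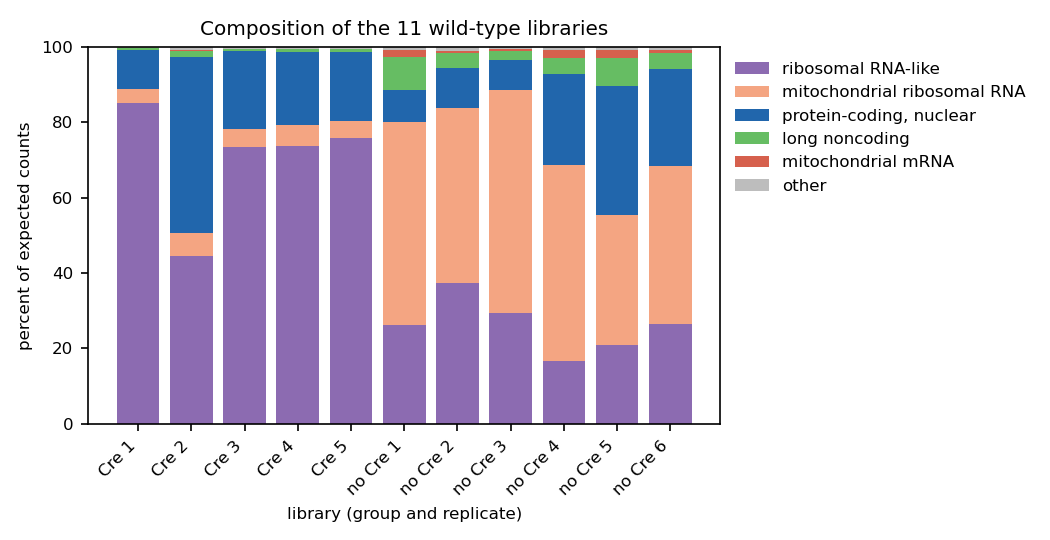
Stacked bars give the percent of expected counts in each class of gene for the 11 wild-type libraries, named by group and replicate. Ribosomal RNA-like models fill 44.6% to 85.2% of the Cre bars, and mitochondrial ribosomal RNA fills 34.7% to 59.1% of the bars without Cre.

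The library titles open with a number whose meaning the labels do not give, and both groups hold libraries numbered 20401 (2 Cre, 3 no Cre) and 20302 (2 Cre, 1 no Cre). Within 20401 alone the test called 3962 genes. Its 2 Cre libraries are replicates 1 and 2, those of highest and lowest ribosomal RNA share, so it is a weak check. The number 20302, with a single no-Cre library (replicate 1), is too small to serve as a check of the calls. The no-Cre libraries also differed by number. Protein-coding genes held 24.1%, 34.3% and 25.7% of counts in replicates 4 to 6, numbered 20401, with TMM factors of 1.68 to 2.38. They held 8.36%, 10.5% and 8.06% in replicates 1 to 3, numbered 20302 or 20301, with factors of 0.489 to 0.494. Without the Cre libraries of lowest and highest ribosomal RNA share the test called 5048. After scaling by library totals the calls fell to 5 of 11 tested cholinergic genes, 10 of 21 subtype markers, 9 of 20 neuropeptide genes and 15 of 44 nuclear respiratory chain genes, all higher, and to 10 of 15 oligodendrocyte and 6 of 12 microglial genes, all lower. The medians of these lists kept their sign under that scaling, at 1.85, 2.16, 1.93, 1.74, -2.28 and -2.99. Other lists of cells also lost calls: 5 of 10 oligodendrocyte precursor, 4 of 15 astrocyte, 2 of 13 endothelial and pericyte, 3 of 8 meningeal, 2 of 8 Schwann and 3 of 6 erythroid genes were called, all lower. Among neuronal and housekeeping lists, 11 of 27 cytoskeleton, 5 of 32 vesicle release, 6 of 16 pan-neuronal, 5 of 19 glycolysis and 3 of 30 motor protein genes were called, all higher. The 13 mitochondrial genes kept all their calls.

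The 4 marker genes of the tagged cells were each higher in every Cre library than in any library without Cre. The share of all tested genes whose groups did not overlap is not given here. A lack of overlap, here and below, therefore describes the named genes and does not set them apart from other tested genes. Chat, which makes acetylcholine, measured 66.8, 35.3, 54.8, 50.1 and 63.3 CPM in Cre replicates 1 to 5, against 1.08 at the lowest, 1.35 at the median and 5.42 at the highest without Cre. Its log2 fold change was 4.80 (SE 0.42, adjusted p = 8.27e-07, edgeR). The groups did not overlap, although the Cre library with the lowest value, replicate 2, and the control with the highest, replicate 2 of its group, both stood away from the rest. Slc10a4, a vesicle transporter of cholinergic terminals, measured 97.9, 64.6, 101, 100.4 and 96.5 CPM with Cre and between 0.378 and 2.16 CPM, median 1.43, without. Its log2 fold change of 6.10 (SE 0.38, adjusted p = 4.7e-08, edgeR) was the larger of the pair. Ret, the receptor subunit through which GDNF family factors signal in motor neurons, stood at 111, 89.4, 95.5, 104 and 120 CPM with Cre and at 4.21 to 8.57 CPM, median 5.58, without, a log2 fold change of 4.07 (SE 0.26). Prph, the intermediate filament peripherin, stood at 238, 135, 279, 243 and 222 CPM against 6.09 to 22.4 CPM, median 11.8, a log2 fold change of 4.17 (SE 0.33).

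Rpl22 and Gars, the genes altered by the tag and by the mutation of the study, were read in the same libraries. Rpl22 was 9.48, 8.83, 11.3, 11.8 and 7.59 CPM with Cre and 8.05 to 20.6 CPM without, so the groups overlapped and the gene was not called (log2 fold change -0.30, SE 0.29, adjusted p = 0.41, edgeR). The tag replaces the last exon, and the total Rpl22 count does not separate tagged from untagged transcripts. Gars, the glycyl-tRNA synthetase, was called higher at 68.7, 38.3, 53.3, 56.4 and 61.9 CPM against 5.61 to 33.2 CPM, a log2 fold change of 1.78 (SE 0.35, adjusted p = 0.000664, edgeR). Its call was lost under library totals and by limma-trend on log2(TPM + 1).

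**Figure D3:**
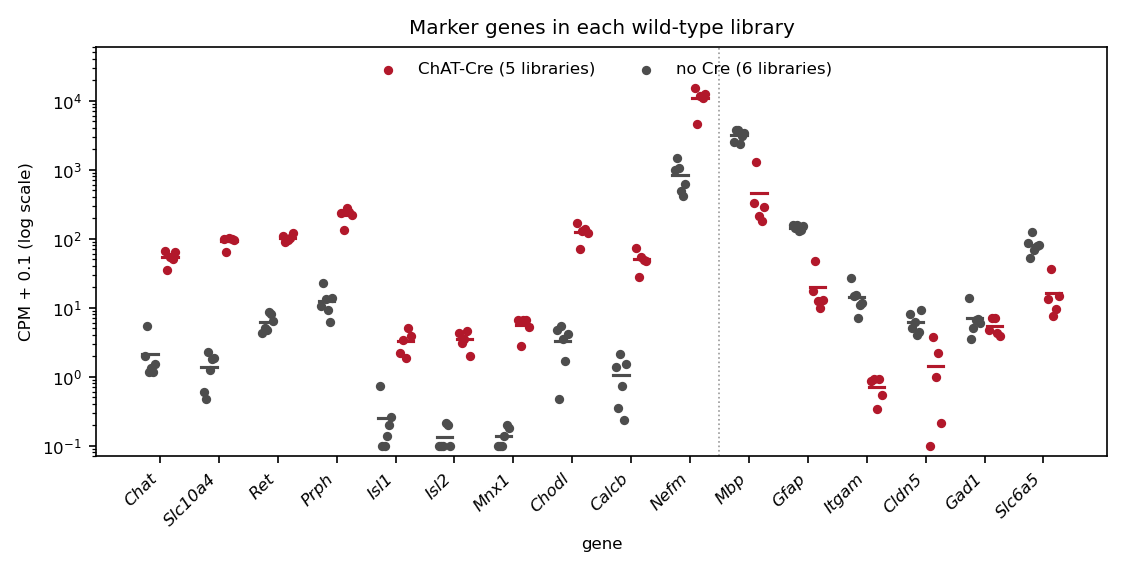
Each point is a library's CPM plus 0.1 on a log axis, red for the 5 ChAT-Cre and grey for the 6 no-Cre libraries, with short bars at the group means; the dotted line divides genes of cholinergic neurons from those of other cells. Chat sits at 35.3 to 66.8 CPM with Cre and at most 5.42 CPM without, while the order of the groups turns over for Mbp, Gfap and Itgam, and the groups overlap for Gad1.

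Most tested genes of cholinergic transmission were higher. Of 16 listed, 15 were in the tables and 11 were tested; 7 were higher, 1 was lower, and the median log2 fold change was 1.95 against -0.14 for all tested genes. Slc5a7, the high-affinity choline transporter, measured 75.1, 121, 108, 84.5 and 100.1 CPM with Cre and 8.65 to 46.4 CPM, median 9.92, without. Most of that background range came from no-Cre replicate 2, and the groups still did not overlap. Acetylcholinesterase, Ache, rose by 2.47 on the log2 scale (SE 0.26), and Acly, which makes the cytosolic acetyl-CoA used for acetylcholine and lipids, by 2.49 (SE 0.38). Chrm2, the M2 muscarinic receptor, rose by 1.95 (SE 0.27) with no overlap, and Chrnb2, a nicotinic receptor subunit, by 1.27 (SE 0.37) with overlapping groups. Bche, the second cholinesterase and one that glia also make, was lower (log2 fold change -1.93, SE 0.66, adjusted p = 0.0242), and lost its call without Cre replicate 1, 3 or 5. The nicotinic subunits Chrna7, Chrna3 and Chrna4 were not called, at 0.83, 0.74 and -0.31 on the log2 scale. The values of Chrna3 and Chrna4 changed sign under other processing.

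The transcription factors of motor neuron identity split in 2 directions. Of 23 listed, 15 passed the filter on low counts, 5 were higher and 5 lower, and the median log2 fold change was -1.14; library totals left 3 higher and 1 lower. The 3 homeodomain factors that mark postmitotic motor neurons had few counts and almost none in the background. Mnx1 (Hb9) measured 6.58, 2.73, 6.43, 6.58 and 5.17 CPM with Cre and at most 0.101 CPM without. This rested on 319 counts in the Cre libraries and 6 in all libraries without Cre, a ratio of 86.8 after scaling to library size (95% counting interval 39.5 to 238). Isl2 measured 4.26, 2.97, 3.46, 4.51 and 1.87 CPM against at most 0.11 CPM, with 218 and 6 counts and a ratio of 59.3 (95% interval 26.8 to 163). Isl1 measured 2.13, 3.33, 1.77, 4.96 and 3.74 CPM against at most 0.637 CPM, a log2 fold change of 4.46 (SE 0.81, adjusted p = 0.000385). All 3 were above the background in every Cre library, and these intervals cover counting error only. With almost no counts in the background, they passed the filter on low counts through the Cre libraries, so a lower call was hardly possible. The same limit holds for other genes near the floor without Cre, and for list counts that include them. Lhx4, a LIM factor of the same programme, rose by 2.25 (SE 0.62), and Esrrg, a nuclear receptor that marks gamma motor neurons, by 1.21 (SE 0.26). Its relative Esrrb was not called (1.30, SE 0.71), and Lhx3, with 1.35, 0.317, 1.53, 0.518 and 1.32 CPM with Cre and at most 0.236 CPM without, was too low to be tested.

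Other cells of the cord make factors of this list as well, and their part in the higher and the lower values was not tested. Zeb2, found in glia and interneurons, measured 10.3, 33.3, 11.7, 11.2 and 17.2 CPM with Cre against 101 to 137 CPM without, a log2 fold change of -2.82 (SE 0.32). Olig2, which forms motor neuron progenitors early and marks oligodendrocyte lineage cells at this age, measured 2.13, 7.60, 1.69, 1.33 and 1.54 CPM against 14.2 to 23.2 CPM. In both genes Cre replicate 2 was the highest of its group. Onecut2 (-2.80), Etv1 (-2.22) and Bcl11b (-2.10) were the other members called lower. Foxp1, the factor of limb-innervating columns, was not called, at 5.22, 4.99, 2.57, 4.88 and 4.18 CPM against 1.39 to 26.3 CPM. Neither were Lhx1 (-1.88), Pou3f1 (-2.07) and Pbx3 (-0.16), whose sign depended on the processing.

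Markers of motor neuron subtypes and of other cholinergic cells were higher in 16 of 21 tested genes of 22 listed, with a median log2 fold change of 2.30. Chodl, chondrolectin, a marker of fast motor neurons, measured 170, 71.2, 127, 139 and 119 CPM against 0.378 to 5.28 CPM, a log2 fold change of 5.28 (SE 0.46). Mmp9, a protease of fast-fatigable motor neurons, rose by 3.55 (SE 0.45), from 0.252 to 1.72 CPM without Cre to 12.6, 7.21, 12.3, 14.4 and 18.3 CPM with it. Spp1, osteopontin, found in large alpha motor neurons, rose by 3.50 (SE 0.28), and Rbfox3 (NeuN), which alpha but not gamma motor neurons carry, by 1.42 (SE 0.27). Sv2b and Kcnab1 rose by 2.02 and 2.45. Markers assigned to gamma or slow motor neurons differed among themselves: Sv2a, of slow motor neurons, was lower, and Wnt7a and Esrrb, of gamma motor neurons, were not called. Those that rose included Gfra1, a GDNF co-receptor, by 1.78 (SE 0.29), Stk32a, a kinase gene, by 3.25 (SE 0.31), Htr1d, a serotonin receptor, by 2.30 (SE 0.74), and Npas1, a transcription factor, by 4.19 (SE 0.92), the last on 83 and 6 counts with a ratio of 22.6 (95% counting interval 9.95 to 63.3). Htr1d was not called without Cre replicate 1. Both Htr1d and Npas1 were near the floor without Cre, so a lower call was hardly possible for them.

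The remaining members went in different directions. Nos1, nitric oxide synthase of preganglionic neurons, measured 18.0, 20.2, 17.7, 15.4 and 19 CPM against 0.883 to 7.98 CPM, a log2 fold change of 1.78 (SE 0.37). Fbn2 (-2.99, SE 0.77) and Sv2a (-0.83, SE 0.26) were the 2 members called lower, Sv2a not so without Cre replicate 3, and Wnt7a was not called (0.15, SE 0.67), with a sign that changed between settings.

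Neuropeptide genes gave some of the steepest gaps. Of 26 listed, 20 were tested, 14 were higher and 1 lower, and the median log2 fold change was 1.84. Calcb, which encodes beta-CGRP, measured 73.1, 28.0, 54.8, 49.4 and 47.1 CPM against 0.135 to 2.05 CPM, a log2 fold change of 5.77 (SE 0.52). Its neighbour Calca, which encodes alpha-CGRP and calcitonin, measured 141, 62.9, 93.2, 73.6 and 89.4 CPM against 0.252 to 8.41 CPM. Sensory neurons of the dorsal root ganglia also make CGRP; of 11 ganglion markers listed, 6 were at 0 in all Cre libraries, and the list's summed level was 2.09 to 5.33 CPM with Cre and 0.126 to 3.70 CPM without. Of this list 2 genes were tested, Isl1, which motor neurons also make and which was higher, and Tusc5, which was not called (-1.75). Isl1 held most of the list's sum with Cre, at a mean of 3.18 CPM with Cre and 0.156 CPM without. The part of ganglion neurons in the CGRP values was not tested.

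Both urotensin genes rose. Uts2b, the urotensin-related peptide of motor neurons, measured 6.77, 7.21, 8.52, 7.99 and 9.57 CPM, with 518 counts, against 9 counts in the 6 libraries without Cre, a ratio of 94.0 (95% counting interval 49.1 to 207). Uts2 rose by 4.50 (SE 0.81). Both urotensin genes were near the floor without Cre, so a lower call was hardly possible for them. Cartpt (4.79), Nts, neurotensin (4.30), and Vgf, a secreted neuronal protein (4.21), rose with no overlap of the groups. Cck rose by 2.79 (SE 0.62) and Penk, the enkephalin precursor, by 1.2 (SE 0.28). Sst, somatostatin, was called higher by 1.85 (SE 0.39), but its 178, 48.6, 67.8, 186 and 233 CPM overlapped the 21.9 to 61.8 CPM of the background. Tac1, substance P precursor of dorsal horn and sensory neurons, was the lower member (-1.49, SE 0.53), a call lost without no-Cre replicate 2 or Cre replicate 1, 3, 4 or 5, and with the title number as a block (-0.44, adjusted p = 0.452, edgeR). The call was also lost in the libraries of that fit without the block. Tac2 (-2.55), Npy (-1.39), Pdyn (-1.33) and Gal (1.83) were not called.

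Among the 20 largest rises at a mean of at least 5 CPM with Cre were several genes outside those lists. The rises were picked by fold change among called genes, so a lack of overlap in them is not separate evidence. Rprml had 366 counts with Cre and 8 without, a ratio of 74.7 (95% counting interval 37.5 to 174). Near the floor without Cre, it could hardly have been called lower. Sncg, gamma-synuclein, measured 274, 51.1, 121, 112 and 123 CPM against 1.53 to 4.72 CPM, a log2 fold change of 5.71 (SE 0.43). Rspo2, a Wnt pathway agonist that motor neurons release at the muscle, measured 39.9, 13.0, 31.6, 20.0 and 27.9 CPM against 0.0804 to 0.883 CPM (5.67, SE 0.49). Arhgap36, a regulator of protein kinase A and Hedgehog signalling on chromosome X, measured 264, 130, 257, 305 and 283 CPM against 3.44 to 10.5 CPM (5.16, SE 0.34). The lowest value of all 4 genes with Cre came from replicate 2. Lgals1, galectin-1 (4.91), Grin3b, an NMDA receptor subunit rich in motor neurons (4.91), Smim18 (4.86), Plxdc1 (4.81), Htr2a, a serotonin receptor (4.41), and Kcnj14, an inward rectifier potassium channel (4.39), completed the set, each without overlap of the groups.

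The axonal skeleton carried the highest levels. Of 27 listed neurofilament and cytoskeleton genes, 27 were tested, 15 were higher and 3 lower, and the median log2 fold change was 1.2. Nefm, the medium neurofilament, measured 15167, 4519, 11846, 10856 and 12590 CPM with Cre against 411 to 1481 CPM without, a log2 fold change of 3.71 (SE 0.45). Per transcript length it was the highest of the genes called higher apart from 2 short hairpin models, with a mean of 3553 TPM with Cre and 293 TPM without. Nefl, the light chain, had 1589 and 236 TPM (2.81, SE 0.33); the annotated spans of Nefm and Nefl overlap on chromosome 14, and strand was not given, so reads of the pair may be shared. Nefh, the heavy chain, rose by 2.32 (SE 0.41). Tubb3 rose by 3.49 (SE 0.33), and Stmn2, which keeps axonal microtubules dynamic, by 3.10 (SE 0.26), at 354, 289, 323, 302 and 332 CPM against 26.5 to 61.5 CPM. Tubb2b was lower (-1.26, SE 0.38). Calm2, Tuba1a and Tuba1b were also among the 10 higher genes with the most TPM, at 1513, 955 and 902 TPM with Cre; these have near-identical relatives, so the division of reads between copies is uncertain. Uchl1, a neuronal ubiquitin hydrolase, rose by 3.27 (SE 0.30).

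Receptors and channels included genes called in both directions, and library totals left fewer of these calls. Over all tested genes 20% were higher and 25.9% lower. Counts near those shares, such as the 5 higher of 25 sodium and calcium channel genes, do not set a list apart. Trophic factor receptors had 5 higher and 8 lower of 20 tested, with a median of -0.34, and 1 each under library totals. Ret, Gfra1 and Nrp2, a semaphorin and VEGF receptor (1.78, SE 0.28), were among those higher, and Erbb3 (-2.34), Erbb4 (-2.78) and Fgfr3 (-2.31), which glia and interneurons use, were among those lower. Sodium and calcium channels had 5 higher and 1 lower of 25 tested with a median of -0.05; library totals left 2 higher and 0 lower, and the title number as a block gave 6 and 4. Potassium and HCN channels had 11 higher and 5 lower of 35, and 6 and 2 under library totals. Kcnk9, the two-pore channel TASK-3, measured 67.1, 32.1, 52.8, 52.7 and 63.2 CPM against 1.40 to 6.36 CPM (3.70, SE 0.34), while Kcnq3, an M-current subunit, was lower (-3.13, SE 0.55). Receptors for glutamate, GABA and glycine had 11 higher and 4 lower of 33, but 1 and 0 under library totals and 2 and 0 on log2(TPM + 1). Grin1, the obligatory NMDA receptor subunit, rose by 1.94 (SE 0.23) and Glra1, the adult glycine receptor subunit, by 1.48 (SE 0.21); Grik3, a kainate receptor subunit, fell by 2.66 on the log2 scale, with overlap. Vesicle release genes had 17 higher and 5 lower of 32: Rab3b (3.27), Cplx1 (2.43) and Snap25 (1.96) rose, and Cplx2 fell by 1.25 on the log2 scale.

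**Figure D4:**
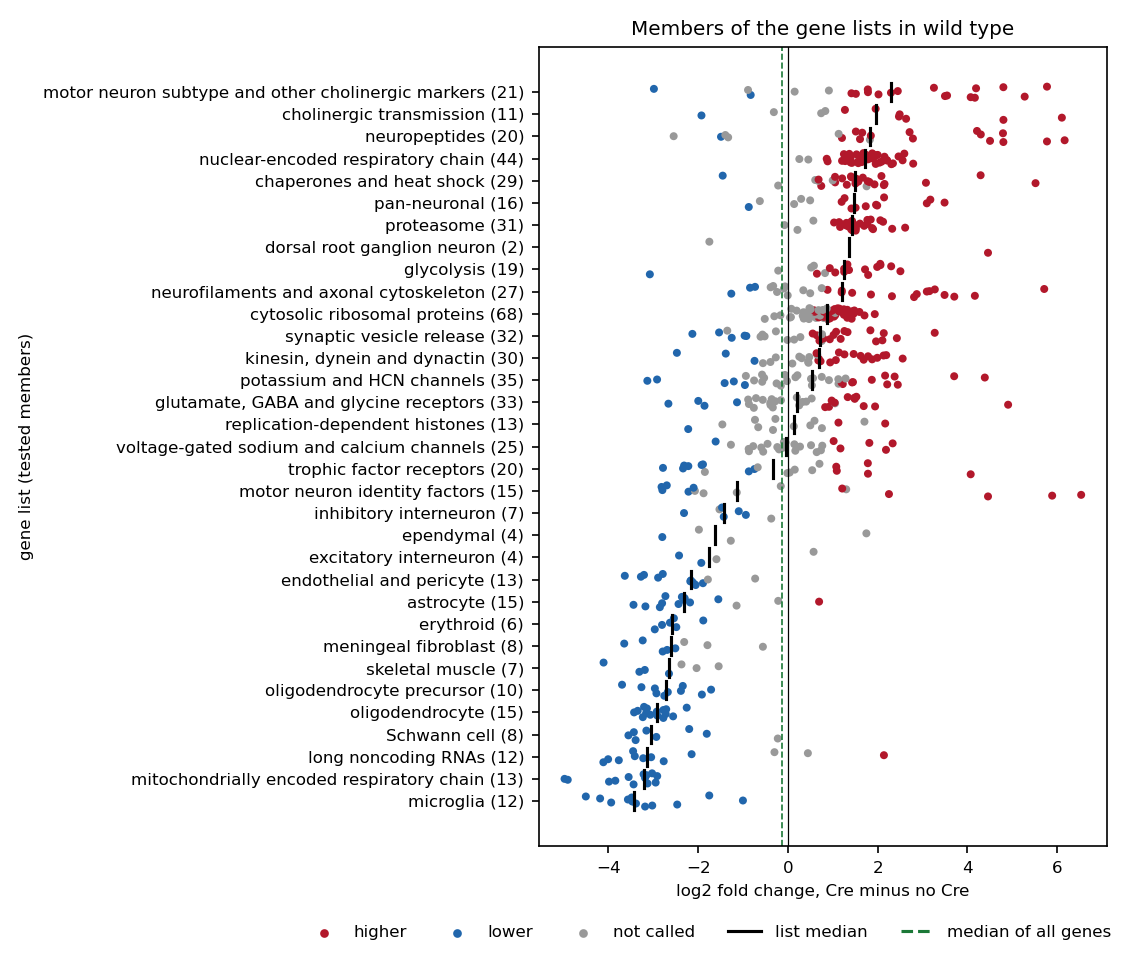
Each point is the log2 fold change, Cre minus no Cre, of a tested member of a list, coloured by its call, with a black tick at the list's median and a dashed line at the median of all genes, -0.14. The lists of cholinergic transmission, subtype markers (median 2.30) and neuropeptides lie to the right. The motor neuron identity factors lie to the left, with a median of -1.14. Lists of glial cells also lie to the left, with a median of -3.43 for microglia.

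Energy metabolism split by the genome that encodes it. Of 44 nuclear genes of the respiratory chain, 42 were higher, with a median log2 fold change of 1.72. Ndufa4, a subunit of cytochrome c oxidase, measured 395, 101, 247, 244 and 199 CPM against 24.1 to 54.3 CPM (2.79, SE 0.32), and Cox5a rose by 2.47 (SE 0.33). All 13 protein-coding genes of the mitochondrial genome were lower, with a median of -3.22. Of these, mt-Nd5 measured 175, 242, 174, 324 and 138 CPM with Cre against 1809 to 21604 CPM without (-4.91, SE 0.68), and mt-Co1 measured 73.1, 313, 68.1, 109 and 84.0 CPM against 870 to 2931 CPM. Mitochondrial mRNAs are translated by ribosomes inside the organelle, which carry no Rpl22. Glycolysis genes were higher in 14 of 19 and lower in 1.

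Genes of protein synthesis and turnover were mostly higher. Of 68 cytosolic ribosomal protein genes tested, 38 were higher and 0 lower by edgeR, with a median of 0.87; 0 of 68 were called after scaling by library totals only and 1 on log2(TPM + 1). Their many processed pseudogenes make single members uncertain. Proteasome genes were higher in 28 of 31, with 0 lower, and 2 of 31 were called after scaling by totals. Chaperones were higher in 23 of 29 tested and lower in 1, with a median of 1.50; 6 of 29 were called higher after scaling by totals and 8 on log2(TPM + 1). Hspb1, the small heat shock protein whose promoter is printed above, measured 101, 34.4, 57.4, 42 and 64.6 CPM against 0.126 to 2.71 CPM (5.52, SE 0.56). Bag3, a co-chaperone of chaperone-assisted autophagy, measured 270, 71.5, 155, 129 and 167 CPM against 5.08 to 10.8 CPM (4.29, SE 0.33). Dnaja1 rose by 1.78 (SE 0.25) and Hspe1 by 1.57 (SE 0.38), the latter with overlapping groups; Hspa8 and Hsp90aa1 rose by 2.14 and 2.15. Motor proteins of the kinesin and dynein families were higher in 17 of 30 and lower in 3.

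Long noncoding RNAs, many of which stay in the nucleus, were lower. Among all 375 tested genes of that annotated type, 10 were higher and 236 lower, with a median of -2.48. Malat1, a nuclear speckle RNA, measured 1391, 2512, 2643, 3735 and 2455 CPM with Cre and 17219 to 148057 CPM, median 23660, without. The highest value, in no-Cre replicate 1, stood far above the rest, and the groups did not overlap. Meg3, a nuclear imprinted transcript, measured 184, 228, 238, 416 and 286 CPM against 2105 to 8693 CPM (-3.77, SE 0.45). Rian (-4.01), Snhg11 (-3.41) and Gas5 (-2.15) were lower as well. Processed pseudogenes went the other way, with 55 higher and 22 lower of 122, and their reads can come from parent genes. Protein-coding genes called higher were shorter than those called lower, with median genomic spans of 18.1 and 45.2 kb (27.6 kb over all tested) and median transcript lengths of 1839 and 3583 bases.

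Most tested markers of glia, vessels and blood were lower. Oligodendrocyte genes were lower in 15 of 15 tested, with a median of -2.92. Mbp measured 333, 1274, 212, 179 and 291 CPM with Cre against 2392 to 3770 CPM without. Its product is a myelin protein, and with Cre it was highest in replicate 2. Oligodendrocyte precursor genes were lower in 10 of 10 and microglial genes in 12 of 12 tested of 15 listed. The microglial list summed to 10.4 to 16.5 CPM with Cre and 60.0 to 110 CPM without. Members near the floor with Cre pass the filter on low counts only through the libraries without Cre. Such a member could hardly be called higher, so the count adds little to these levels. The same limit holds for members of other lists that are near the floor with Cre. Itgam (CD11b) measured 0.774, 0.832, 0.241, 0.814 and 0.440 CPM against 7.00 to 27.0 CPM (-4.50, SE 0.46), and Cx3cr1 (-3.18), C1qb (-3.94) and Fcrls (-4.18) moved with it. Astrocyte genes were lower in 12 of 15 and higher in 1. Gfap measured 17.4, 47.4, 12.3, 9.91 and 12.8 CPM against 129 to 157 CPM (-2.85, SE 0.37), Slc1a2, the main glutamate transporter, was lower by a log2 fold change of -3.44, and Aqp4, the water channel of astrocyte end feet, by one of -3.18.

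Vessels, meninges, nerve roots and blood followed. Endothelial and pericyte genes were lower in 11 of 13 tested (Cldn5 -2.06, Flt1 -1.89), Schwann cell genes in 7 of 8, meningeal fibroblast genes in 5 of 8 and erythroid genes in 6 of 6 (Hbb-bs -2.80). Flt1 overlapped between groups and lost its call without any 1 of 6 libraries, Cre replicates 1, 3, 4 and 5 and no-Cre replicates 5 and 6; Cldn5 lost its call without Cre replicate 3. The summed level of the oligodendrocyte list was 575 to 2974 CPM with Cre and 7264 to 12418 CPM without, and the highest Cre value was that of replicate 2, as it was for the precursor, astrocyte, microglial, endothelial, meningeal, Schwann and erythroid lists. Without that library the medians lay lower still, at -3.82 for oligodendrocytes and -4.05 for microglia, and 15 of 15 and 11 of 14 tested were called lower.

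Other neurons were measured by their transmitter genes. Inhibitory interneuron genes were lower in 5 of 7 tested with a median of -1.43, in 3 of 7 with the title number as a block (median -0.76), and in 0 of 7 under library totals (edgeR, median -0.89). Slc6a5, the glycine transporter of glycinergic neurons, measured 13.4, 36.5, 7.48, 9.54 and 14.5 CPM against 52.1 to 125 CPM (-2.31, SE 0.38). Slc32a1, the vesicular transporter for GABA and glycine, was called lower (-0.94, SE 0.36, adjusted p = 0.0404), a call lost under 15 alternatives, among them the omission of Cre replicate 1, 3, 4 or 5 or of no-Cre replicate 3, 4 or 6. Gad1, which makes GABA, was not called, at 4.64, 6.93, 6.92, 4.22 and 3.85 CPM against 3.41 to 13.9 CPM. Slc17a6, the vesicular glutamate transporter VGLUT2, was lower (-1.93, SE 0.30). Pan-neuronal genes were higher in 11 of 16 and lower in 1, with a median of 1.46.

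Several of the 20 largest falls rested on single libraries. The falls were also picked by fold change among called genes, and the same limit holds for a lack of overlap in them. Pex11g, at the top with -5.81 (SE 1.47), measured 61.2 CPM in no-Cre replicate 2 and at most 1.01 CPM in the other 5, with overlap of the groups. Mex3a (-4.83) and Pigh (-4.09) overlapped too, with 39.5 CPM in no-Cre replicate 1 and 28.2 CPM in replicate 2. Efs (-4.78), Kif18a (-4.68), Cdon (-4.64), Trim12a (-4.54), Il12rb2 (-4.13), Fgd6 (-4.09), Spc24 (-4.37), Ptrf, a caveolar coat protein (-4.36), and Ltbp1 (-4.06) had no overlap but a single control library well above the rest. Cep350, a centrosome protein, measured 14.7, 21.2, 20.1, 12.7 and 22.0 CPM with Cre and 27.9 to 1633 CPM, median 122, without, the highest in no-Cre replicate 4 (-4.33, SE 0.87). Falls shared by the control libraries included Bcar1, a focal adhesion scaffold, at 33.7, 17.8, 32.7, 27.3 and 37.0 CPM against 212 to 749 CPM (-4.20, SE 0.38). Klhl41 (-4.78), Egfr (-4.20) and Cd84 (-4.12) completed the set.

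The same contrast was read in the C201R+/- libraries, and the difference of the effects was tested gene by gene. Of 12741 genes tested in the mutants, 4247 (33.3%) were called, 14.1% higher and 19.2% lower. There, 7 of 12 cholinergic genes were higher and 0 lower, 14 of 21 subtype markers higher and 2 lower, and 13 of 13 mitochondrial genes lower. Other lists had few calls. Microglial genes were lower in 2 of 15 (median -0.59), endothelial and pericyte genes in 1 of 14 and meningeal genes in 0 of 7. Ribosomal protein genes were higher in 4 of 68 and lower in 1 (median 0.07). The difference between genotypes was not tested by list. Among 2489 genes higher in wild type and tested in the mutants, 1398 (56.2%) were called higher there too and 2359 lay above 0; among 3029 lower genes, 1838 (60.7%) were called lower and 2971 lay below 0. Chat changed by 3.62 in the mutants against 4.80 in wild type, Slc10a4 by 5.16 against 6.10, Ret by 2.95 against 4.07 and Prph by 3.72 against 4.17, none with a difference past the test (adjusted p from 0.45 to 0.83, edgeR). The effect of Cre differed between the genotypes for 3 of 14468 genes (0.0207%), 2 with a larger value in the mutants (0.0138%) and 1 with a smaller one (0.00691%), with 1524 at an unadjusted p below 0.05. Cdkn1a, the cell cycle inhibitor p21, lay between 8.24 and 15.1 CPM (all genotypes scaled together) in wild-type Cre, 11.1 and 24.7 in wild-type no-Cre, 29.4 and 56.0 in mutant Cre, and 1.17 and 9.47 in mutant no-Cre libraries. The Cre and no-Cre ranges overlapped in wild type and were apart in the mutants. It was not called in wild type (-0.49) and was higher in the mutants (2.47), a difference of 3.10 (SE 0.44, adjusted p = 0.00146, edgeR) that kept its call without each of the 23 libraries in turn but not when scaled by library totals only (adjusted p = 0.55). Clic4, an intracellular chloride channel protein, lay between 9.22 and 24.2 CPM in wild-type Cre, 55.6 and 78.6 in wild-type no-Cre, 28.1 and 61.9 in mutant Cre, and 25.3 and 58.6 in mutant no-Cre libraries. It was lower in wild type (-1.99) and not called in the mutants (-0.22), a difference of 1.90 (SE 0.35, adjusted p = 0.0437, edgeR), called in 5 of the 23 fits that left out 1 library and not with library totals only (adjusted p = 0.55). The predicted gene Gm6984 was the third; it had no count in any mutant Cre library, and it was called in 10 of the 23 fits that left out 1 library and with library totals only. The count was 8 without wild-type Cre replicate 2, 5 without wild-type no-Cre replicate 4, and 1 without several other libraries.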

How the data were processed

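Ribosome-associated mRNA was sequenced from anti-haemagglutinin precipitates of spinal cord. Per the submitters' processing notes, Bowtie2 2.2.0 and RSEM 1.2.12 were used; the sources used here give no genome build, annotation or strand. The authors deposited 1 table per library with an expected count, a TPM and an FPKM value for each of 38924 gene IDs, of which 37607 matched GENCODE M21. FPKM was not used.

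Expected counts were rounded to whole numbers and fitted with edgeR 4.0.16 in R 4.3.3: filterByExpr (minimum count 10), TMM factors, quasi-likelihood test over the 11 wild-type libraries, Benjamini-Hochberg over all tested genes. The standard error is the absolute log2 fold change divided by the square root of F. CPM uses TMM-scaled library sizes. The genotype difference was an interaction over 23 libraries. Count shares used an exact permutation test. Alternatives used RLE factors, library totals, DESeq2 1.42.0, limma 3.58.1 (voom; trend on log2(TPM + 1)), other filters, covariates and omissions; omission of the 2 Cre libraries and fits within title numbers were chosen after seeing the data. The edgeR steps were also run on simulated counts in which few genes were changed, at random, with no built-in shift in ribosomal RNA share. That setting differs from these data, so the run is no check of the scaling used here. No 2 libraries of a group agreed within sampling noise (lowest chi-square per degree of freedom 8.53).

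The members and gene lists (33 lists, 683 of 691 symbols found) were chosen with earlier results of these data known. Genes are named by a rule: the markers, Rpl22 and Gars; the 20 largest rises and falls among called genes with a mean of at least 5 CPM in the higher group, without predicted, mitochondrial, ribosomal RNA and Y-linked genes, Xist and Tsix; the 10 higher genes with most TPM; tested members of the motor neuron lists; and up to 5 of other lists. Some genes that the rule names are not reported here, and lists with no member named are given by counts. Histone, ependymal, muscle and excitatory neuron genes were higher, lower and tested in 2, 1 and 13, in 0, 1 and 4, in 0, 4 and 7, and in 0, 2 and 4 members.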

Additional observations from a re-analysis of the deposited data

Results flagged for a closer look

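Of 290 groups of library values examined for the reported genes and count classes, 56 held a library far from the others by Dixon's criterion, where chance marks about 1 in 20. The libraries of 1 group share their composition and scaling, so these marks are not independent. In Cre replicate 2 the high values were, in CPM, Mbp 1274, Gfap 47.4, Aqp4 35.8, Slc1a2 125, Cx3cr1 0.990, Flt1 10.4, Hbb-bs 126, Slc6a5 36.5, Olig2 7.60, Onecut2 1.90, Fbn2 0.871, Tac2 3.05 and mt-Co1 313, with 46.8% of counts in nuclear protein-coding genes and 0.356% in mitochondrial mRNA. The same library was low for Slc10a4 (64.6 CPM) and Arhgap36 (130.0 CPM). The part of other cells' RNA in the values of this library was not tested.

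Among the libraries without Cre, replicate 1 was high for Malat1 (148057 CPM), mt-Nd5 (21604 CPM), Meg3 (8693 CPM), Mex3a (39.5 CPM), Spc24 (36.7 CPM), Foxp1 (26.3 CPM), Il12rb2 (24.9 CPM), Trim12a (22.6 CPM), Rpl22 (20.6 CPM), Gad1 (13.9 CPM), Kcnab1 (12.4 CPM) and Isl1 (0.637 CPM), and low for Snap25 (223 CPM). No-Cre replicate 2 was high for the cholinergic genes Chat (5.42 CPM) and Slc5a7 (46.4 CPM), for Acly (125 CPM), Cck (29.8 CPM), Tac2 (15.9 CPM), Rab3b (21.1 CPM), Wnt7a (3.28 CPM) and Uts2b (0.757 CPM), and for Pex11g (61.2 CPM), Ltbp1 (58.8 CPM), Fgd6 (37.0 CPM), Ptrf (29.9 CPM), Kif18a (29.1 CPM), Pigh (28.2 CPM), Efs (28.1 CPM) and Cdon (20.8 CPM); it was low for Sv2b (1.39 CPM). No-Cre replicate 3 was high for Ndufa4 (54.3 CPM), Vgf (8.41 CPM), Pou3f1 (6.79 CPM), Gal (1.62 CPM) and Uts2 (1.19 CPM), replicate 4 for Cep350 (1633 CPM) and replicate 6 for Grin3b (1.29 CPM). Chrna7 was high in Cre replicate 1 (5.03 CPM) and Sv2a in Cre replicate 5 (37.1 CPM).

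The effect of Cre differed between wild type and C201R+/- by edgeR for Cdkn1a, by 3.10 on the log2 scale, for Clic4, by 1.90, and for Gm6984, by -12.9, the last a fitted value and no bound, since Gm6984 had no count in any C201R+/- Cre library. Without 1 library in turn, Cdkn1a was called in 23 of 23 fits, Clic4 in 5 and Gm6984 in 10.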

How the results depend on the processing

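Chat kept its call under every setting run, with log2 fold changes of 4.61 to 5.32 when single libraries were left out. The share of ribosomal RNA-like counts stayed 40.8 to 50.9 percentage points higher with Cre, and that of mitochondrial ribosomal RNA 40.9 to 45.8 points lower. The number of called genes ran from 4878 to 6474 without single libraries; it moved by more than 1.5 times under library totals (906) and under limma-trend on log2(TPM + 1) (1454), and the cause was not tested. By limma-voom with quality weights it was 8547, with 4048 higher against 2503. With the title number as replicate block it was 5769 (2734 higher, 3035 lower), against 5862 for the same libraries without the block. The labels do not say what that number marks, and replicate numbers, given in accession order, pair nothing. The number of genes whose Cre effect differed between genotypes was 3, 1 under library totals, and 1 to 8 without single libraries.

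Changes of sign were seen in genes that were not called. Rpl22 was 0.073 by limma-voom. Chrna3 was -0.034 with the block and -0.16 within 20401, and Chrna4 was 0.10 on TPM. Pbx3 was 0.17 under library totals, 0.34 by voom, 0.84 with the block, 0.65 without it in the same libraries, 0.87 on TPM, 0.67 within 20401, 1.27 within 20302, and -0.36 to 0.24 without single libraries. Wnt7a was -0.12 on TPM and -0.085 to 0.71 without single libraries. Of 123 called genes named besides Chat, library totals lost 37 calls, limma-trend on TPM 32 and 20401 alone 14. The fit with the block lost 4 calls (Pex11g, Slc32a1, Sv2a and Tac1). The same 4 were lost in those libraries without the block. Genes with few counts, such as Isl2 and Mnx1, are limited by counting error.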

Other observations

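Xist, the nuclear RNA of the inactive X chromosome, and Ddx3y, a gene of the Y chromosome, were read in every library. With Cre, Xist measured 29.5, 14.5 and 17.6 CPM in replicates 2, 3 and 5 and 0.580 and 0.222 CPM in replicates 1 and 4, where Ddx3y stood at 21.5 and 12.1 CPM. Without Cre, Xist measured 306, 357 and 307 CPM in replicates 3, 4 and 5 and at most 0.892 CPM in the others, where Ddx3y stood at 16.7, 7.95 and 11.9 CPM. Both groups thus held libraries with either pattern, 3 of 5 and 3 of 6 with Xist, and the Xist levels of those libraries did not overlap between the groups. With the Xist level as a covariate, 5577 genes were called, 2485 higher and 3092 lower.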
